A study of Saccharomyces cerevisiae with 117 samples.

Results

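Ribosome biogenesis factors are the proteins that modify, cut and fold pre-ribosomal RNA and load ribosomal proteins onto it, without staying in the finished ribosome. The 58 factors described here were chosen by name from known function, out of 6420 gene entries counted in each cell. Earlier results of these data were known when they were chosen. They comprise 8 proteins of small nucleolar ribonucleoproteins (snoRNPs), 23 factors of the small subunit (SSU), 25 of the large subunit (LSU), and RRP5 and HAS1, which serve both subunits. All were measured as reads per gene in 117 single cells of Saccharomyces cerevisiae S288C, a laboratory strain, taken from 1 clone.

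Every cell was a spheroplast, a yeast cell grown to log phase in rich YPD medium and stripped of its wall with Zymolyase. Isotonic cells were held in S medium with glucose, amino acids and 1 M sorbitol. Amino acid starvation (AAS, 20 cells) was the same medium without amino acids, hypotonic stress (12 cells) without sorbitol, and glucose starvation (GS, 47 cells) without glucose. AAS and hypotonic cells were compared with the 19 isotonic cells of batch 1, which both comparisons share, and the GS cells named Y5 with the 19 isotonic cells of batch 2. The labels give an exposure of at least 30 min and up to 5 h, without a time for single cells. The methods of the study state a shorter upper limit.

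Values come from the 84 cells that the study kept, which are 18 under AAS, 12 hypotonic and 16 isotonic in batch 1, with 21 under GS and 17 isotonic in batch 2. No separate cultures are named, so each group counts as 1 sample, no test between conditions was possible, and standard deviations (SD) describe the spread over cells. A member is called lower or higher where it differs at least 2-fold. Name prefixes of cells follow the condition, so handling and treatment cannot be told apart. Reads on genes per cell lay between 3112955 and 8502504 under AAS, between 4297691 and 7870247 in hypotonic cells and between 3603505 and 55179414 in isotonic cells of batch 1. In batch 2 they lay between 705807 and 2535593 in GS cells and between 14245 and 1133518 in isotonic cells. Genes known to respond to each starvation describe the labels but are no independent check, since the study reported such genes from these same cells. MET3, of sulfate assimilation, averaged 1691 ± 1712 CPM in AAS cells and 32.8 ± 68.5 CPM in isotonic cells (CPM, a cell's read count of the gene scaled to a common total of reads on genes). ICL1, of the glyoxylate cycle, averaged 2502 ± 3538 CPM in GS cells and had no read in isotonic cells of batch 2. Of 6 genes known to rise in glucose starvation, ICL1 among them, 4 were also called higher under AAS, against 43.2% of all genes compared. No such gene was used for hypotonic cells.

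Ribosome assembly starts in the nucleolus on the transcript of RNA polymerase I. Box C/D and H/ACA snoRNPs are guided by small nucleolar RNAs to sites that they methylate or turn into pseudouridine, the U3 snoRNP is part of the SSU processome, which folds and cleaves the 18S part of the transcript, and pre-60S particles mature with the help of helicases, GTPases and AAA ATPases and are finished in the cytoplasm. In budding yeast the genes of this machinery are known as the Ribi regulon, expressed in step with growth, with PAC, bound by the repressors Dot6 and Tod6, and RRPE, bound by Stb3, as its promoter motifs.

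The promoters were examined because these motifs mark the regulon at the DNA level. The motifs are known from such promoters and the members were chosen as such genes, so their match rates are a description and no independent result. Exact matches on both strands were searched in the 300 bases before each start codon, in the R64 sequence of RefSeq. PAC was searched as GCGATGAG and its core as GATGAG, which lies within it, and the RRPE core as AAAATTTT, which reads the same on both strands. The PAC core was in 54 of 58 members (93.1%), against 19.1% of 6007 promoters of the same length, and the RRPE core in 48 (82.8%), against 9.42%. Full PAC was in 30 members (51.7%, against 4.05%) and both cores in 46 (79.3%, against 4.44%). UTP22 and EMG1 were the 2 members with neither.

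The classes differed in full PAC, which was in 0 of 8 snoRNP proteins, 13 of 23 SSU and 16 of 25 LSU factors. The PAC core was in all 8 snoRNP proteins, in 19 SSU and in all 25 LSU factors, and the RRPE core in 7, 17 and 22 of them. Ribosomal protein genes, which are known to use other factors, had the PAC core in 16 of 137 promoters (11.7%) and the RRPE core in 9 (6.57%). PAC cores of the members lay 57 to 259 bases before the start codon (median 120) and RRPE cores 33 to 274 bases before it (median 139).

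**Figure D1:**
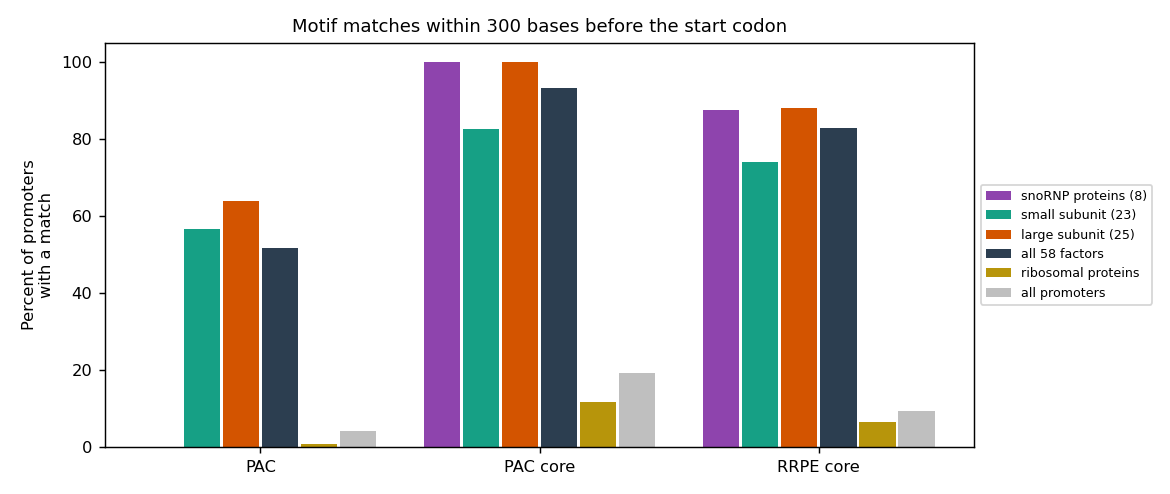
Percent of promoters with an exact match (y axis) to each motif (x axis) within 300 bases before the start codon, with bars for the member classes, ribosomal protein genes and all promoters. The PAC core was in all 8 snoRNP proteins and all 25 LSU factors, and in 19.1% of all promoters.

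The stretches below show the motifs of members whose levels are described next: snoRNP proteins (SNU13, NOP1), SSU and LSU members that were abundant or among the lowest (NSR1, UTP6, RRP36, IMP4, NUG1, RRS1, RLP24), members that were not called lower under AAS (MPP10, BUD21, REI1), and EMG1, which has no core. Capitals mark every match to PAC or either core on either strand, and sequences run toward the start codon.
SNU13 (YEL026W), chrV:101656-101782, + strand: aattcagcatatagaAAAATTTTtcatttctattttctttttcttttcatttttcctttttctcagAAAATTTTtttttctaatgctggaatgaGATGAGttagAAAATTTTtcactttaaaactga
NOP1 (YDL014W), chrIV:427124-427180, + strand: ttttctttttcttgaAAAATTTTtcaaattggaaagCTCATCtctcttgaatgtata
NSR1 (YGR159C), chrVII:807806-807858, - strand: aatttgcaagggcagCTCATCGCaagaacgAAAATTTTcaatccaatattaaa
UTP6 (YDR449C), chrIV:1358987-1359046, - strand: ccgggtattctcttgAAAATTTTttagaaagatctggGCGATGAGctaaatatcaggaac
RRP36 (YOR287C), chrXV:851933-851981, - strand: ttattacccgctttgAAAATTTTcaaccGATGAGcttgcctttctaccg
IMP4 (YNL075W), chrXIV:485445-485501, + strand: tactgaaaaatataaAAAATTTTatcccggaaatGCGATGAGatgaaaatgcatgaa
NUG1 (YER006W), chrV:162587-162645, + strand: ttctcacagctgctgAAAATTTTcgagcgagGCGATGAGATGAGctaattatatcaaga
RRS1 (YOR294W), chrXV:868189-868244, + strand: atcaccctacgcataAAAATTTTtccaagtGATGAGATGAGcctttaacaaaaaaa
RLP24 (YLR009W), chrXII:166275-166361, + strand: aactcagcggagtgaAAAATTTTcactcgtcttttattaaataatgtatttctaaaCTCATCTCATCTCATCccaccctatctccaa
MPP10 (YJR002W), chrX:438758-438810, + strand: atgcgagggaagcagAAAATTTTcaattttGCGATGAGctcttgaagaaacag
BUD21 (YOR078W), chrXV:472586-472640, + strand: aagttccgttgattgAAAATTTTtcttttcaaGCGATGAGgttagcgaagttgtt
REI1 (YBR267W), chrII:739727-739778, + strand: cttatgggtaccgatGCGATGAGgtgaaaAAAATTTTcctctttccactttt
EMG1 (YLR186W), chrXII:523432-523531, + strand: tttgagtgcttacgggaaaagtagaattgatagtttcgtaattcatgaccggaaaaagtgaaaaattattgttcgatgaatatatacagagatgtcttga
UTP6, far lower under AAS, and MPP10 and BUD21, not lower, each had an RRPE core followed by full PAC. A match describes letters and not a bound site.

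Under AAS the machinery as a whole took up a much smaller part of the transcriptome. The 58 members held 0.0690%, 0.132% and 0.463% of a cell's reads on genes in the lowest, median and highest AAS cell, against 0.330%, 0.949% and 2.40% in isotonic cells. The means were 0.158 ± 0.104% in AAS cells and 0.998 ± 0.531% in isotonic cells (SD, n = 18 and 16 cells), and 16 of 18 AAS cells lay below every isotonic cell. The exceptions were D93X, at 0.463%, and D91X, at 0.343%, while A27, the lowest isotonic cell, was at 0.330%. In 99.3% of pairs of an AAS and an isotonic cell the AAS cell had the smaller share. In such data a smaller share of reads and less RNA per cell cannot be told apart.

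All classes were lower, and snoRNP proteins more than SSU or LSU factors. Reads on snoRNP proteins made up 0.0286 ± 0.0266% in AAS cells and 0.301 ± 0.126% in isotonic cells, a ratio of isotonic to AAS of 10.54. For them 17 of 18 AAS cells were below every isotonic cell. SSU factors held 0.0511 ± 0.0270% in AAS cells and 0.232 ± 0.196% in isotonic cells, a ratio of 4.53, and LSU factors 0.0733 ± 0.0634% in AAS cells and 0.396 ± 0.288% in isotonic cells, a ratio of 5.41. For SSU factors 0 AAS cells were below every isotonic cell, since 1 isotonic cell had only 0.000603%, yet the AAS cell had the smaller share in 88.2% of pairs. The ratios for snoRNP, SSU and LSU proteins depended on the cells compared: they were 6.94, 3.42 and 4.2018 with all labelled cells, 7.68, 3.45 and 3.61 against isotonic cells whose names start with A, and 14.2, 5.93 and 7.72 against those starting with E or G.

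**Figure D2:**
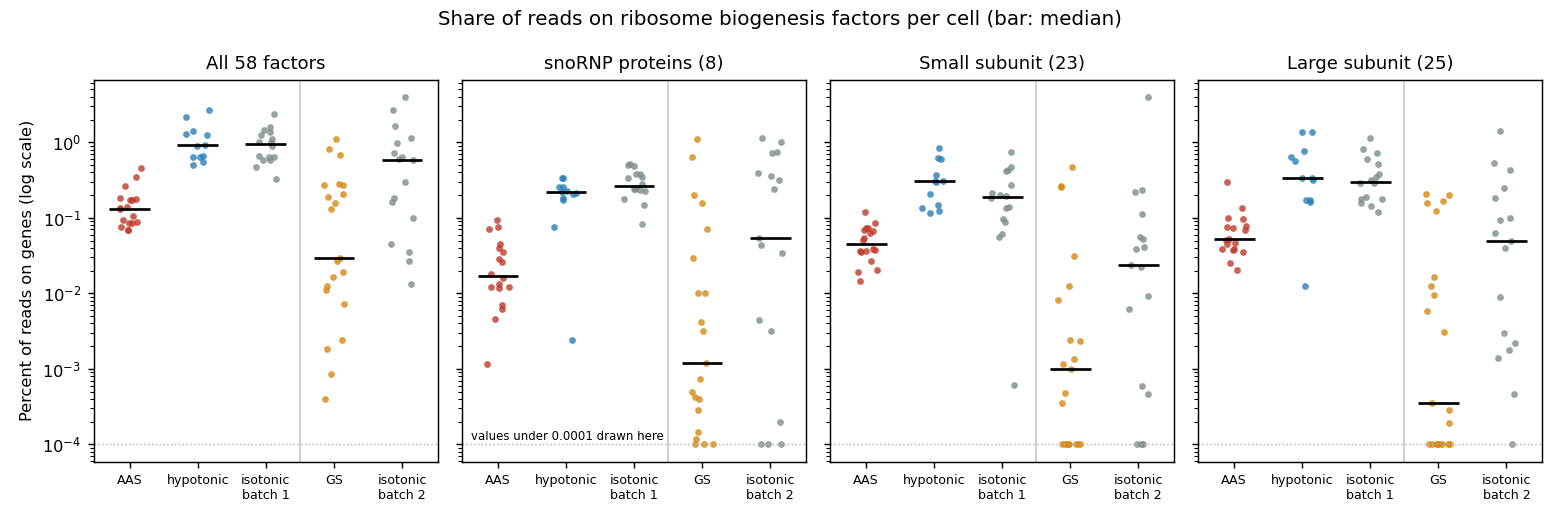
Percent of reads on genes (y axis, log scale) that fell on all 58 factors, the 8 snoRNP proteins, the 23 SSU and the 25 LSU factors, with 1 point per cell and a bar at the median, for each condition beside its isotonic cells. In the first panel AAS cells lie between 0.0690% and 0.463% and isotonic cells of batch 1 between 0.330% and 2.40%.

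Gene by gene, 50 of the 58 members were at least 2-fold lower under AAS, against 13.8% of the 5825 genes compared, and 0 were at least 2-fold higher, against 43.2%. Genes compared are those with a read in at least 20% of the cells, which all 58 members passed. The log2 ratio of mean CPM, with 1 CPM added to each mean, had a median of -2.29 over the members and of 0.74 over all genes, so that the members were 3.03 below the typical gene. Single values given for a gene from here on are log2 ratios of this kind, negative where the stressed cells were lower. Scaling moved the median of all genes, to -0.14 with summed reads scaled by TMM and -0.58 with DESeq2 size factors. Then 52 members were at least 2-fold lower with TMM, against 30.3% of genes, and 56 with DESeq2 size factors, against 40.7%. Of the 50, 37 stayed called whichever single cell was left out, and the other 13 are given below with each cell whose removal ended the call. A call is on means: for NHP2, NOP10, UTP18, NOG2, SPB4 and RPF1, all among the 50, the median was higher in AAS than in isotonic cells. Their folds rested on the top isotonic cells.

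For 55 of 58 members a read was found in a smaller share of AAS than of isotonic cells, against 12.5% of genes, the exceptions being NOP10, BUD21 and TIF6. No member had every AAS cell below every isotonic cell (0 of 58, against 0.0515%). AAS cells otherwise had more genes with a read, with a median of 4324 in AAS cells and 2506 in isotonic cells after each cell was thinned to 100000 reads, while a median of 21 members had a read in AAS cells and 35.5 in isotonic cells. Spike-in RNA (ERCC) took a median of 5.12% of reads in AAS cells and 0% in isotonic cells, and its part in these differences was not tested.

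All 8 snoRNP proteins were called lower, around a median of -3.11. The box C/D proteins lay lowest: SNU13, which binds the kink-turn of box C/D RNAs, was at -5.26, NOP1, the methyltransferase fibrillarin, at -4.54, and the scaffolds NOP56 and NOP58 at -4.13 and -3.17. Among H/ACA proteins CBF5, the pseudouridine synthase, was at -3.04, GAR1 at -2.70, NOP10 at -1.65 and NHP2 at -1.10. NHP2 was within 2-fold without A25 (-0.85), A26, A29 or G50, and NOP58 at -3.82 without D93X and -2.97 without G55. The medians went the other way for NOP10, at 6.96 CPM in AAS cells and 1.45 CPM in isotonic cells. They did so too for NHP2, at 27.2 CPM in AAS cells and 22.7 CPM in isotonic cells. For NOP10 the AAS cell was lower in 46.5% of pairs.

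SNU13 and NOP1 were also the most abundant members per kilobase in isotonic cells, averaging 678 ± 655 and 629.7 ± 531.96 CPM per kilobase. SNU13 had 0, 2.86 and 27.8 CPM in AAS cells, against 2.36, 200.55 and 698 CPM in isotonic cells (lowest, median and highest cell). NOP1 had 0, 6.41 and 131 CPM in AAS cells, against 2.57, 447 and 1608 CPM in isotonic cells. The groups overlapped only at the bottom of the isotonic range: 11 of 16 isotonic cells for SNU13 and 14 for NOP1 were above every AAS cell.

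Of the 23 SSU factors 18 were called lower, around a median of -1.92. UTP6, of the UtpB complex, was lowest at -5.08, with 0, 0 and 20.5 CPM in AAS cells, against 0, 3.25 and 799.6 CPM in isotonic cells, and -4.21 without G53. ENP2, of the processome, had 0, 0 and 52.3 CPM in AAS cells, against 0, 20.5 and 551 CPM in isotonic cells, log2 ratio -5.05, and -6.72 without D91X. It had a read in 3 of 18 AAS cells (16.7%, exact Clopper-Pearson 95% interval 3.58% to 41.4%) and in 13 of 16 isotonic cells (81.2%, exact Clopper-Pearson 95% interval 54.4% to 95.953%), intervals that cover counting error only.

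Large folds could rest on few cells. RRP36, of the early 90S particle, had 0, 0 and 7.31 CPM in AAS cells, against 0, 0.154 and 891 CPM in isotonic cells, log2 ratio -5.00, but -1.53 without G56. NSR1, the nucleolin-like protein needed for 18S rRNA, had 0, 0 and 112 CPM in AAS cells, against 0.218, 235 and 2046 CPM in isotonic cells, log2 ratio -4.83, and -5.43 without D91X. For NSR1 the difference was broad, with a read in 8 of 18 AAS cells and all 16 isotonic cells, 9 of them above every AAS cell.

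By complex, UtpA members UTP4 (-3.92, but -1.33 without A34), UTP10 (-2.29) and UTP15 (-1.11, but 2.06 without G56) were lower. So were the UtpB members UTP18 (-2.50), UTP13 (-1.92), DIP2 (-1.73), PWP2 (-1.58) and UTP21 (-1.36). Single isotonic cells set several of these, as UTP18 was at -0.88 without G55, UTP13 at -0.77 without G55, PWP2 at -0.01 without G55 and UTP21 at -0.41 without E11X.

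Of the U3 and Mpp10 proteins IMP4, the most abundant SSU member per kilobase after NSR1, had 0, 3.11 and 36.9 CPM in AAS cells, against 0, 13.3 and 729 CPM in isotonic cells, log2 ratio -3.42. RRP9, specific to U3, had 0, 0.855 and 109 CPM in AAS cells, against 0, 2.19 and 1845 CPM in isotonic cells, log2 ratio -3.32, and -1.42 without G56. IMP3 was at -2.95 (-2.21 without A34). EMG1, which methylates a pseudouridine of 18S rRNA, had 0, 1.47 and 31.6 CPM in AAS cells, against 0, 4.00 and 196 CPM in isotonic cells, log2 ratio -2.91. UTP7 (-1.12) and UTP20 (-1.06) were just past 2-fold. UTP7 was at -0.83 without G53 and was also within 2-fold without A28 or A7. UTP20 was at -0.52 without G50 and was within 2-fold without any of 11 cells, the others being A29, D7, D19, D20, D22, D24, D28, D93X, D94X and D97X.

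The SSU members within 2-fold were MPP10 (0.56), BUD21 (0.49), KRR1 (0.07), UTP22 (-0.14) and SOF1 (-0.27). MPP10, the scaffold that carries IMP3 and IMP4, had 0, 40.2 and 212.97 CPM in AAS cells, against 0, 7.03 and 159 CPM in isotonic cells. BUD21, a processome subunit also named Utp16, had 0, 15.3 and 164 CPM in AAS cells, against 0, 1.72 and 103 CPM in isotonic cells. Both pairs of ranges overlapped almost fully, and directions depended on scaling and on single cells: with summed reads scaled by TMM, MPP10 was at -1.50 and BUD21 at -0.93. BUD21 was at -0.16 without D93X and 1.14 without A26, and SOF1 at 1.49 without G50. Within batch 1, MPP10 was at -0.17 against isotonic cells named A and 3.24 against those named E or G, and BUD21 at -0.26 and 3.57. Relative to the median of all genes MPP10 was at -0.18 and BUD21 at -0.25.

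Both factors that serve the 2 subunits were lower, with a median of -3.51 that lay below the -3.11 of snoRNP proteins. Together they held 0.00503 ± 0.00648% of reads in AAS cells and 0.0687 ± 0.0848% in isotonic cells. RRP5, needed for cleavages that free each subunit's RNA, was at -3.81. HAS1, a DEAD-box helicase, was at -3.20 (-4.09 without D93X and -2.88 without A7).

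Of the 25 LSU factors 22 were called lower, around a median of -2.08, and all 25 were below 0. RIX7, an AAA ATPase of pre-60S particles, was lowest at -4.88 (-4.08 without G53). RLP24, a placeholder for Rpl24, had 0, 0 and 41.7 CPM in AAS cells, against 0, 27.7 and 1834 CPM in isotonic cells, log2 ratio -4.69, and -3.45 without A34. NUG1, a GTPase of pre-60S particles and the most abundant LSU member per kilobase, had 0, 24.7 and 721 CPM in AAS cells, against 0.197, 207.91 and 2346 CPM in isotonic cells, log2 ratio -2.76, and -3.61 without D97X. These 3 were called under every removal of a single cell, although the 2 groups overlapped for each.

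RRS1, which helps load the 5S particle, had 0, 0 and 29.3 CPM in AAS cells, against 0, 37.8 and 277 CPM in isotonic cells, log2 ratio -4.17, and -4.86 without D30, and its partner RPF2 was at -1.85 (-2.65 without D28). The early factors NOP4 (-4.16), MAK16 (-2.59), EBP2 (-2.29), BRX1 (-2.02), RPF1 (-1.52) and NOP2 (-1.23) were lower, as were the helicases MAK5 (-3.11), DRS1 (-2.08) and SPB4 (-1.62). With 1 cell left out, MAK16 was at -1.10 (A34), BRX1 at -3.08 (D93X), NOP2 at -0.96 (A27) or -1.86 (D91X) and also within 2-fold without E10X, MAK5 at -1.85 (G55), DRS1 at -1.42 (G55) and SPB4 at 1.30 (G56). MAK21 was at -2.78 and its partner NOC2 at -2.19 (-4.90 without D93X and -1.23 without G55). With 1 isotonic cell left out, BRX1 was at -1.49 (A29), RPF2 at -1.42 (G50) and RRS1 at -3.87 (G56).

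In the Nop7 complex ERB1 was at -4.09 and NOP7 at -3.69, while the third subunit, YTM1, was within 2-fold at -0.41. YTM1 had 0, 0.196 and 254 CPM in AAS cells, against 0, 3.22 and 263 CPM in isotonic cells. Its log2 ratio was -0.98 without D94X and 0.05 without A35, and lay at -1.15 relative to the median of all genes. The nuclear GTPases NOG2 (-1.44) and NOG1 (-1.36) were at -0.02 without A7 and -0.26 without G55. The intron of NOG2 holds the small nucleolar RNA gene SNR191, whose reads the counts may not separate.

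Export and cytoplasmic factors lay nearest to isotonic levels, with a median of -0.996 over 4. NMD3, the nuclear export adaptor, was at -1.72 (-3.26 without D93X and -0.40 without G57). LSG1, the GTPase that releases NMD3, was at -1.47 (-2.10 without D28 and -1.07 without G50). TIF6, which keeps the subunits apart until the end, had 8.50, 113 and 240.1 CPM in AAS cells, against 0, 135 and 648 CPM in isotonic cells, log2 ratio -0.53, and was the member with the highest level per kilobase under AAS. REI1, of cytoplasmic recycling, had 0, 0 and 65.7 CPM in AAS cells, against 0, 0.0644 and 153 CPM in isotonic cells, log2 ratio -0.38, and 1.28 without G55. SLM6, on the opposite strand, overlaps REI1, and the counts may not separate their reads, since whether counting used strand is not stated.

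**Figure D3:**
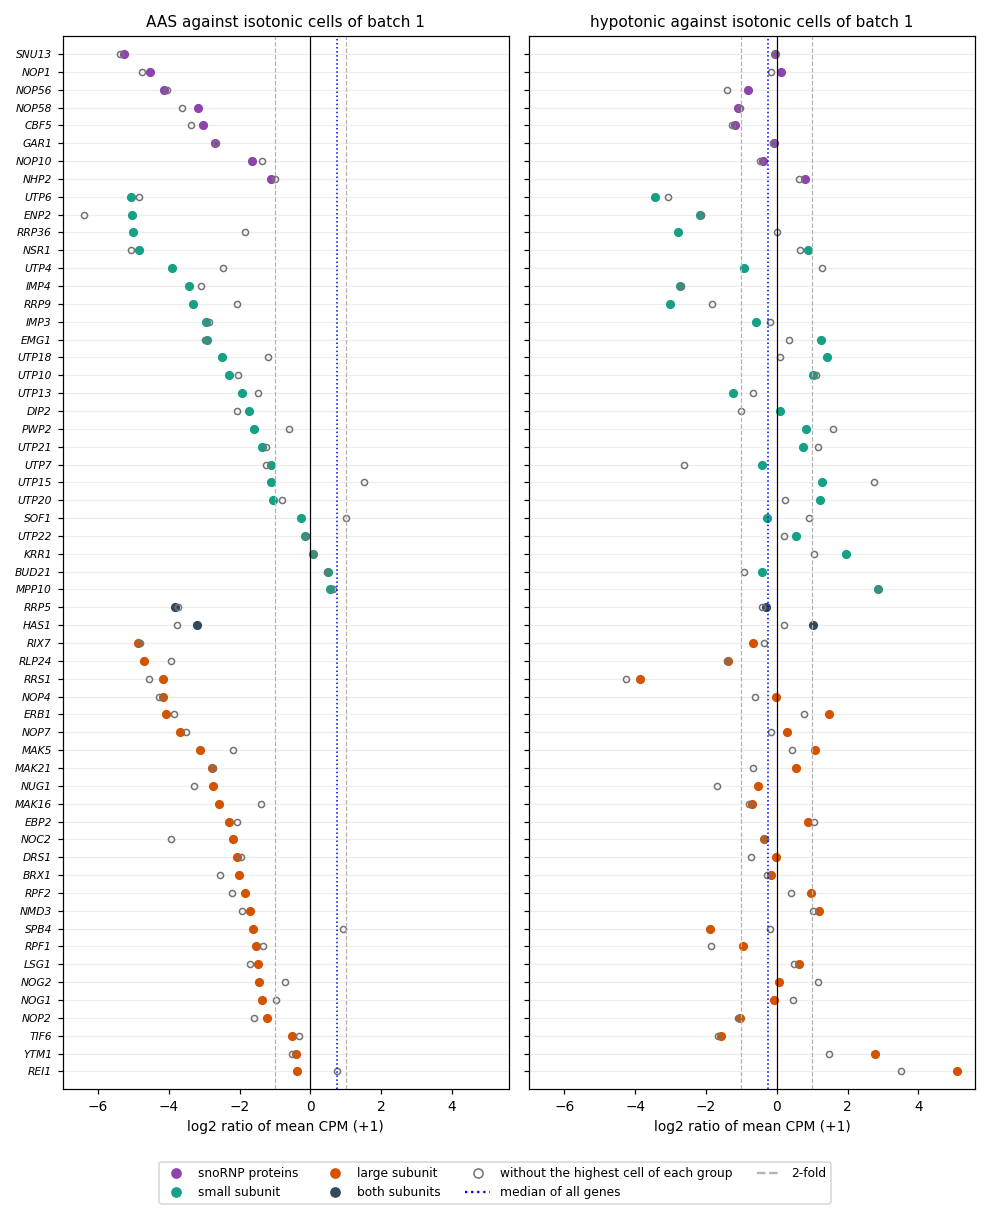
Log2 ratio of mean CPM (x axis, after adding 1 CPM) for each of the 58 members (rows, by class and AAS value), with AAS on the left and hypotonic cells on the right against the same isotonic cells of batch 1. Open circles omit each group's top cell for that gene, dashed lines mark 2-fold and the dotted line the median of all genes (0.74 for AAS, -0.26 for hypotonic cells); 50 members lie left of the 2-fold line under AAS, 43 of them also as open circles.

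Other genes of the pathway were mostly lower too under AAS, beside 13.8% of all genes lower and 43.2% higher. Of 49 other SSU factors 28 were called lower and 7 higher (median -1.28), with the helicase HCA4 at -3.88 and UTP30 at 2.38. Of 55 other LSU factors 37 were lower and 8 higher (median -1.68), between MTR4, the exosome helicase, at -3.90 and DBP7, a helicase, at 2.98. Of 8 genes of RNA polymerase I 6 were lower and 1 higher (median -1.93), with RPA43 at -3.28 and RRN3, its initiation factor, at 1.56. Ribosomal protein genes had a median of -3.32, with 133 of 137 lower.

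Among 10 regulators 5 were called higher and 1 lower under AAS (median 0.98), which is 50% and 10%, near the 43.2% and 13.8% of all genes and their median of 0.74. TOR1, a kinase of TORC1, was at 2.99 and CRF1, a corepressor of ribosomal protein genes, at 2.80. Of the PAC repressors TOD6 averaged 6.76 ± 13.6 CPM in AAS cells and 31.1 ± 50.0 CPM in isotonic cells, log2 ratio -2.05, and DOT6 715.92 ± 429.6 CPM in AAS cells and 462 ± 619 CPM in isotonic cells, log2 ratio 0.63. All 6 sulfate assimilation genes were higher (median 4.09), and of 8 housekeeping genes ACT1 (-1.02) was lower and ALG9 (1.33) higher (median 0.34).

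**Figure D4:**
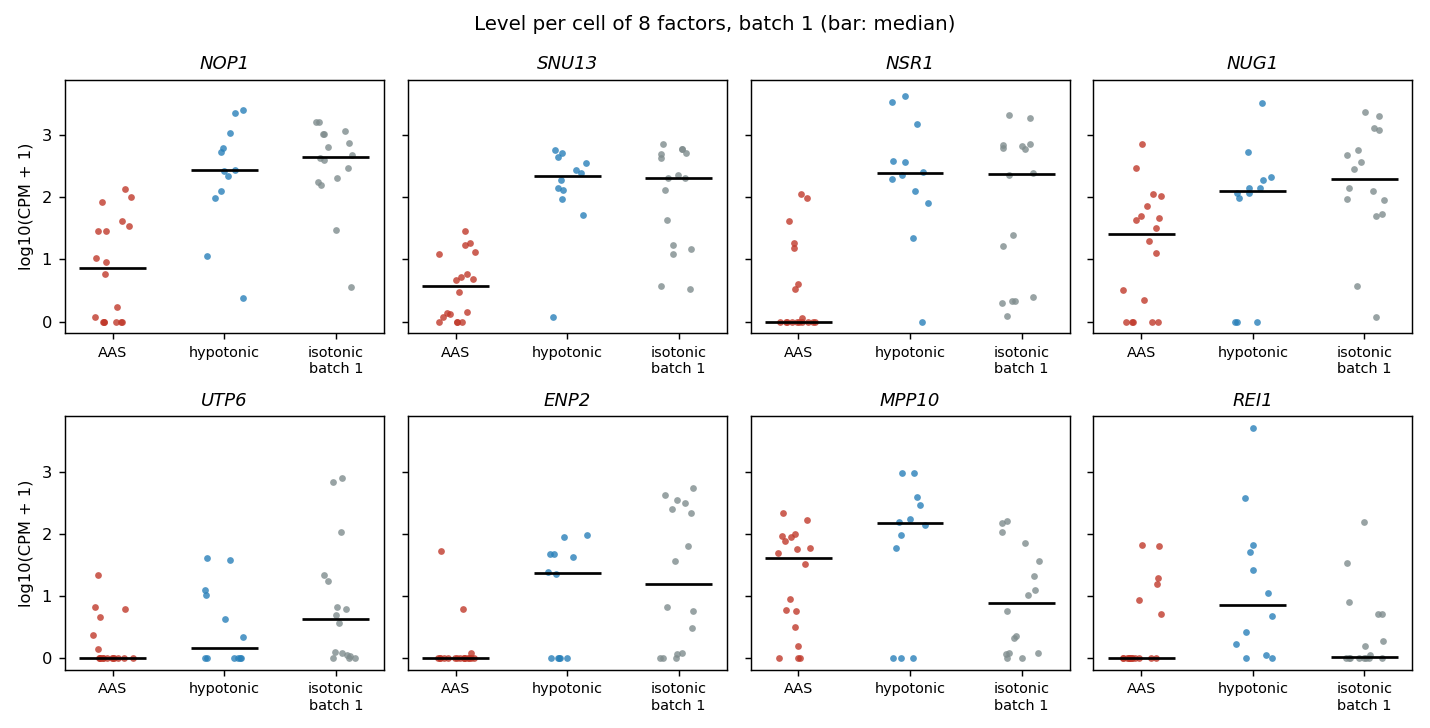
Level per cell of 8 members (y axis, log10 of CPM + 1) in AAS, hypotonic and isotonic cells of batch 1, with 1 point per cell and a bar at the median. For NOP1 14 of 16 isotonic cells lie above every AAS cell, and for MPP10 5 of 12 hypotonic cells lie above every isotonic cell.

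Hypotonic cells kept the machinery's share of reads near that of isotonic cells. It was 0.493%, 0.914% and 2.65% in the lowest, median and highest hypotonic cell, against 0.330%, 0.949% and 2.40% in isotonic cells, with means of 1.13 ± 0.675% in hypotonic cells and 0.998 ± 0.531% in isotonic cells. The hypotonic cell had the smaller share in 45.3% of pairs. Members had a median log2 ratio of -0.06, against -0.26 for all 5600 genes compared. At least 2-fold lower were 13 members, against 30.1% of genes, and at least 2-fold higher 13, against 21.2%, which is 22.4% of the members each way and near the background.

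Class shares lay on different sides of isotonic cells. SnoRNP proteins held 0.208 ± 0.0959% in hypotonic cells and 0.301 ± 0.126% in isotonic cells, SSU factors 0.338 ± 0.231% in hypotonic cells and 0.232 ± 0.196% in isotonic cells, and LSU factors 0.515 ± 0.448% in hypotonic cells and 0.396 ± 0.288% in isotonic cells. The hypotonic cell had the smaller share in 72.9% of pairs for snoRNP proteins, 33.9% for SSU and 44.3% for LSU factors. Ratios of isotonic to hypotonic shares were 1.45, 0.685 and 0.769, and against isotonic cells whose names start with E or G they were 1.96, 0.896 and 1.10, so the side of LSU factors depended on the isotonic cells. Against isotonic cells whose names start with A they were 1.06, 0.520 and 0.513. The median log2 ratio was -0.25 for snoRNP proteins, 0.10 for SSU and -0.03 for LSU factors. For 44 members (75.9%) a read was found in a smaller share of hypotonic than isotonic cells, against 67.4% of genes.

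RRS1 was lowest in hypotonic cells, with 0, 0 and 25.2 CPM in hypotonic cells, against 0, 37.8 and 277 CPM in isotonic cells, log2 ratio -3.87, and -4.57 without F3X. UTP6 had 0, 0.576 and 39.971 CPM in hypotonic cells, against 0, 3.25 and 799.6 CPM in isotonic cells, log2 ratio -3.43, and -2.56 without G53. RRP9 had 0, 3.61 and 102 CPM in hypotonic cells, against 0, 2.19 and 1845 CPM in isotonic cells, log2 ratio -3.00, and -1.11 without G56. For RRP9 the hypotonic median was the higher one, so the fold rested on the top isotonic cells. RRP36 had 0, 0 and 44.2 CPM in hypotonic cells, against 0, 0.154 and 891 CPM in isotonic cells, log2 ratio -2.79, but 0.68 without G56. Also lower were IMP4 (-2.73), ENP2 (-2.16), SPB4 (-1.89), TIF6 (-1.57), RLP24 (-1.38), UTP13 (-1.23), CBF5 (-1.18), NOP58 (-1.10) and NOP2 (-1.05). Of the 13, 7 stayed called under every removal of 1 cell, while SPB4 was at 1.03 (G56), RLP24 at -0.14 (A34), UTP13 at -0.08 (G55), NOP58 at -0.90 (G55) and NOP2 at -0.78 (A27) without the cell in parentheses. NOP58 was also within 2-fold without F20X, F22X, F23X, G56 or G57, and NOP2 without C81X, F21X, F23X, F24X, E10X or G53.

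REI1 was highest, with 0, 6.86 and 5010.4 CPM in hypotonic cells, against 0, 0.0644 and 153 CPM in isotonic cells, log2 ratio 5.08, and 1.85 without F23X. MPP10 had 0, 146 and 957 CPM in hypotonic cells, against 0, 7.03 and 159 CPM in isotonic cells, log2 ratio 2.86. For MPP10 5 of 12 hypotonic cells were above every isotonic cell, and it and REI1 were the 2 of 13 higher members called under every removal of 1 cell. YTM1 had 0, 46.0 and 3097 CPM in hypotonic cells, against 0, 3.22 and 263 CPM in isotonic cells, log2 ratio 2.77, but 0.99 without F21X. The others were KRR1 (1.95), ERB1 (1.47), UTP18 (1.42), UTP15 (1.27), EMG1 (1.25), UTP20 (1.23), NMD3 (1.19), MAK5 (1.09), HAS1 (1.03) and UTP10 (1.02). None of them passed 2-fold higher once 1 hypotonic cell was left out, as KRR1 was at 0.62 (F22X), ERB1 at 0.30 (F24X), UTP18 at -1.52 (F23X), UTP15 at -0.41 (F22X), UTP20 at -0.31 (F21X), NMD3 at -0.31 (F21X), MAK5 at -0.83 (F20X), HAS1 at -0.13 (F20X), UTP10 at 0.56 (F21X) and EMG1 at 0.00288 (F21X). UTP10, HAS1 and MAK5 lay so near 2-fold that any of 13, 12 and 9 cells, isotonic ones included, ended their calls.

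Both stresses were set against the same isotonic cells, so their values are not independent. Side by side, RRS1 was at -4.17 under AAS and -3.87 in hypotonic cells, NOP1 at -4.54 under AAS and 0.11 in hypotonic cells, and SNU13 at -5.26 under AAS and -0.06 in hypotonic cells. ERB1 was at -4.09 under AAS and 1.47 in hypotonic cells. Hypotonic values within 2-fold leaned on single cells as well: of 32 such members 23 passed 2-fold in one direction or the other when some cell was left out, the values reached lying between -2.92 without F40X for UTP7 and 2.41 without G55 for PWP2.

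The machinery also varied among isotonic cells. Those named A held 0.711 ± 0.290% of reads on members (n = 9) and those named E or G 1.37 ± 0.557% (n = 7), with a median of 5082 genes read in A cells and 2786 in E or G cells. Against A cells alone the AAS median over members was -1.72 with 39 called lower, and against E or G cells -2.52 with 48. AAS cells with X in the name held 0.252 ± 0.159% (n = 5) and those without it 0.122 ± 0.0439% (n = 13). Hypotonic cells named C held 0.517 ± 0.0342% (n = 2) and those named F 1.25 ± 0.676% (n = 10). Across the 16 isotonic cells the member share and the number of genes read had a Pearson r of -0.69 and a Spearman rho of -0.75, a description, since both come from the same libraries.

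SSU and LSU shares went together across cells of batch 1, again as a description over cells that share library preparation. Pearson r was 0.56 over 18 AAS cells, 0.80 over 12 hypotonic cells and 0.64 over 16 isotonic cells, with Spearman rho of 0.61, 0.59 and 0.52. In batch 2, r was 0.28 and rho 0.01 over 21 GS cells, and -0.05 and 0.36 over 17 isotonic cells.

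Batch 2 was sparser, and GS can be described for few members. A median of 4 members had a read in GS cells and 8 in isotonic cells. Genes read had medians of 1332 in GS cells and 1047 in isotonic cells, without thinning. GS cells had the higher median of reads on genes, so these counts were taken at unequal depth. After thinning as for AAS, the medians were 881 genes in 21 GS cells and 984 in the 11 isotonic cells deep enough. Members with a read then had medians of 2 in GS cells and 7 in those isotonic cells. The members' share of reads was 0.000394%, 0.0295% and 1.10% in the lowest, median and highest GS cell, against 0.0133%, 0.590% and 3.96% in isotonic cells. Means were 0.201 ± 0.303% in GS cells and 0.810 ± 1.07% in isotonic cells, 7 of 21 GS cells were below every isotonic cell, and the GS cell had the smaller share in 75.9% of pairs. ERCC took a median of 40.5% of reads in GS cells and 77.2% in isotonic cells, and its part was not tested.

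SnoRNP proteins held 0.107 ± 0.271% in GS cells and 0.296 ± 0.379% in isotonic cells, SSU factors 0.0504 ± 0.124% in GS cells and 0.279 ± 0.941% in isotonic cells, and LSU factors 0.0430 ± 0.0750% in GS cells and 0.187 ± 0.355% in isotonic cells. The SD exceeded the mean in every one of these groups. Most of the isotonic SSU mean came from 1 cell, Y702, with 22290 reads on genes and an SSU share of 3.92%, nearly all EMG1. The SSU medians were 0.000992% in GS cells and 0.0236% in isotonic cells, and the GS cell had the smaller SSU share in 64.7% of pairs.

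For 41 members a read was found in a smaller share of GS than isotonic cells, against 39.5% of the 5214 genes with a read in batch 2, and for 12 in a larger one, of 53 members read there. Only 12 members passed the 20% filter: NOP1, NOP56, NOP58, SNU13, CBF5, NHP2, NOP10, NSR1, EMG1, IMP4, YTM1 and TIF6. Of these 9 were at least 2-fold lower, against 26.2% of 2106 genes, and 1 higher, against 44.1%. A member could pass through the group in which it was read, so these counts say nothing of the 58 as a set.

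NSR1 had no read in any of 21 GS cells (0%, exact Clopper-Pearson 95% interval 0% to 16.1%) and was read in 9 of 17 isotonic cells (52.9%, exact Clopper-Pearson 95% interval 27.8% to 77.0%), with 4.62 CPM in the median and 2211 CPM in the highest. Set against a floor of 3 reads over the GS group, its 3655 isotonic reads gave a nominal limit of 5687-fold lower in summed reads. Without Y712 the nominal limit was 2109-fold. RRP5, which missed the filter, likewise had no GS read and was read in 7 isotonic cells. Its nominal limit was 3658-fold lower, or 350.4-fold without Y716. YTM1 was read in 2 GS cells, with 20.9 CPM in the highest, and in 6 isotonic cells, with 11594 CPM in the highest, log2 ratio -8.73, and -6.64 without Y717. The intervals cover counting error only. The nominal limits would hold only for independent reads, which reads amplified by PCR are not, so they bound no difference.

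Among snoRNP proteins SNU13 was read in 8 GS cells, with 289 CPM in the highest, and 8 isotonic cells, with 2039 CPM in the highest. Its log2 ratio was -3.24, with -5.02 without Y526 and -1.74 without Y719. NOP1 was read in 1 GS cell, Y514, with 1110.3 CPM, and 7 isotonic cells, with 2552 CPM in the highest, log2 ratio -1.91, but -7.66 without Y514 and -0.04 without Y712. Single cells set the size of the others too. NOP56 was at -2.39 (-3.51 without Y515 and -1.58 without Y710) and CBF5 at -2.06 (-7.16 without Y514 and -1.08 without Y712). NHP2 was at -1.43 (-2.50 without Y514 and -0.83 without Y719). NOP10 was at -1.01 (-0.41 without Y709, and within 2-fold without any of 19 cells). NOP58 was at 0.01 (-8.79 without Y527 and 1.08 without Y717).

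EMG1 was read in 4 GS cells, with up to 2673 CPM, and 5 isotonic cells, with up to 39210.4 CPM, log2 ratio -4.17, but 6.08 without Y702. IMP4 had the opposite direction: it was read in 7 of 21 GS cells (33.3%, exact Clopper-Pearson 95% interval 14.6% to 56.968%), with 17938 reads and up to 4729 CPM, and in 1 of 17 isotonic cells, with 5 reads, log2 ratio 7.66, and 6.24 without Y525. TIF6 was read in 6 cells of each group, with up to 200.84 CPM in GS cells and 109 CPM in isotonic cells. Its log2 ratio was 0.30, but -0.65 without Y517 and 1.01 without Y701.

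Reads in isotonic cells of batch 2 but none in GS cells were found for 18 of 53 members, against 10.1% of the 5214 genes: beside NSR1 and RRP5 these were UTP4, UTP6, UTP13, UTP18, UTP21, RRP9, ENP2, RIX7, NOG1, NOG2, LSG1, REI1, NOP4, DRS1, BRX1 and MAK21. Most of their reads came from 1 cell. The nominal limit of LSG1, the largest of these 16, was 3235-fold lower but 215.34-fold without Y701. For REI1 it was 3124-fold but 12.5-fold without Y701. The limit without the cell that held most reads was 151-fold for UTP4 (Y719), 249.5-fold for BRX1 (Y716), 88.8-fold for NOG1, 34.6-fold for DRS1, 29.6-fold for NOP4 and 6.58-fold for ENP2 (Y717 for these 4), and 22.025-fold for RIX7 (Y712). MAK21, UTP6, UTP13, UTP18 and RRP9 were read in 1 isotonic cell, and NOG2 and UTP21 had 2 reads left without their top cell. The reverse held for UTP15, UTP20, RRP36, ERB1 and IMP3, 5 of 53 members, against 20.6% of genes. Here too 1 GS cell held most reads: 41 of 52 for UTP15, 120 of 126 for UTP20, 1573 of 1575 for ERB1, all 90 for RRP36 and both reads of IMP3. PWP2, KRR1, SOF1, MAK16 and NOP2 had no read in either group. The remaining 19 were read in both groups but missed the filter, and their folds are not given.

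**Figure D5:**
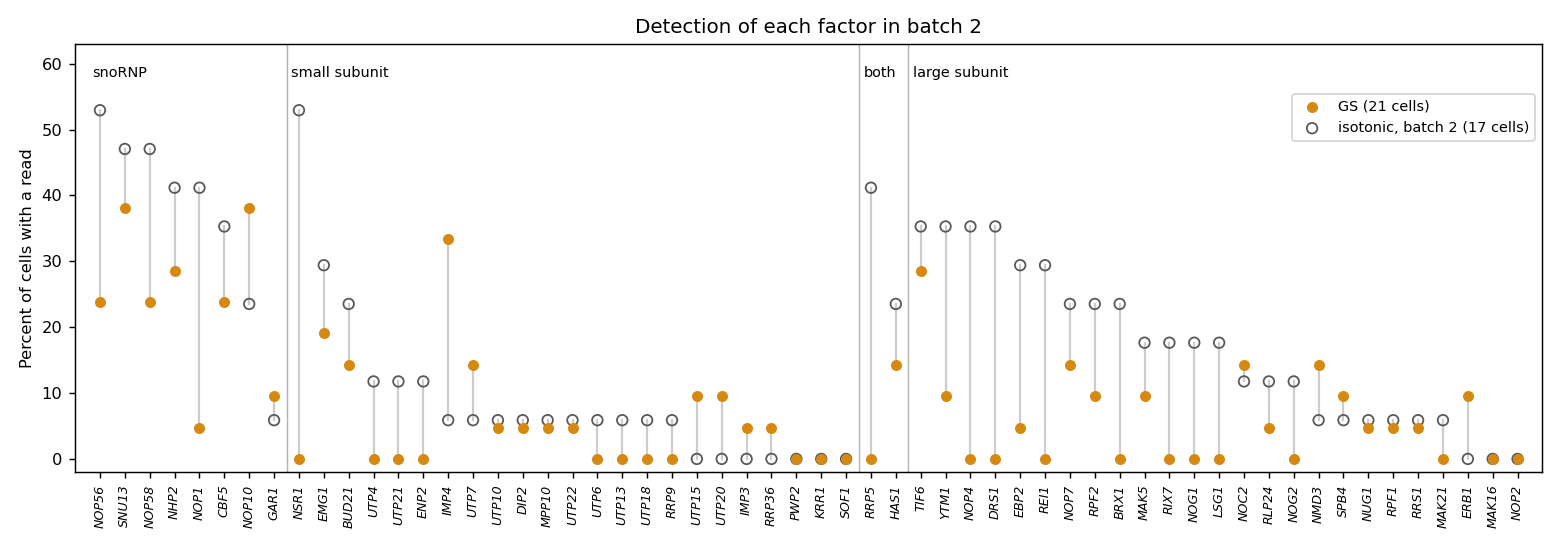
Percent of cells with at least 1 read (y axis) for each of the 58 members (x axis, grouped by class), in 21 GS cells and 17 isotonic cells of batch 2, joined by a line. NSR1 is at 0% of GS and 52.9% of isotonic cells, and IMP4 at 33.3% of GS and 5.88% of isotonic cells.

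Members with different motifs had overlapping AAS values. The 46 with both cores had a median log2 ratio of -2.24, with 40 called lower, and the 8 with the PAC core alone -2.72, with 7 lower. UTP4 and UTP15, with the RRPE core alone, were at -3.92 and -1.11, and EMG1 and UTP22, with neither, at -2.91 and -0.14.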

How the data were processed

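Single cells were sequenced by the authors, who aligned reads with STAR 2.5.2 to R64 and deposited raw read counts per gene from HTSeq; the submitters' notes also name RSEM 1.2.31. The 5 HTSeq summary rows were left out (medians of 2.98% for no feature and 2.58% for ambiguous reads). The 84 kept cells follow the study's own list. CPM and folds were computed in pandas 2.3.3 (Python 3.11.15, NumPy 2.4.6), exact intervals in SciPy 1.17.1 and plots in matplotlib 3.10.9, with scaling alternatives in R 4.3.3 with edgeR 4.0.16 (TMM) and DESeq2 1.42.0 (size factors). No count model was fitted, since each group is 1 sample. The fold step was also run on simulated counts with folds planted in the more abundant genes. That run checks the computation only, and does not stand for sparse members whose values single cells set. Genes entered a comparison if 20% or more of its cells held a read, and 1 CPM was added to means.

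All members are named; per-cell values are given for the 2 most abundant per kilobase in each class and, per comparison, the 4 lowest and 2 highest log2 ratios, and for others mentioned in passing. Members and lists were chosen with earlier results of these data known. Whether counting used strand is not stated, which touches REI1 and SLM6. The longer form of RRPE is not reported here. No pair of cells had identical counts (0 pairs).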

Additional observations from a re-analysis of the deposited data

Results flagged for a closer look

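The 20 GS cells named Y2 entered none of the comparisons above, only 1 alternative. They still held 659 reads on members among 673397 reads on genes (0.0979%), spread over 14 of the cells and 30 members. This is above the floor of 3 reads set for a count of 0.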

How the results depend on the processing

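Scaling, filters, thinning, cell sets and single cells were varied one at a time. For AAS the count of members at least 2-fold lower, the median of members and the class medians kept their direction: 38 (difference of mean log2 values, against 6.9% of genes) to 56 members (DESeq2 size factors, against 40.7%) were lower, and the median of members lay between -3.62 and -1.53. With DESeq2 size factors the AAS medians were -3.62 for members, -3.38 for SSU and -3.50 for LSU factors; the median of all genes was then -0.58. Members at least 2-fold higher under AAS, 0 in the main comparison, numbered 1 with summed reads, with a difference of mean log2 values, without the highest cell of each group and with AAS cells named with X, 2 against isotonic cells named A or named E or G, and 0 to 2 when 1 cell was left out (2 without G56). The AAS difference in members' share of reads, -0.840 percentage points, was -0.719 with all labelled cells, -0.553 against cells named A and -1.21 against cells named E or G.

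Hypotonic members at least 2-fold lower numbered 8 against isotonic cells named A, and those higher, 13 in the main comparison, numbered 7 (without F21X) to 17 (without G50) with 1 cell left out. RRP36 was at 0.0066 without the highest cells, 0.48 against cells named A and between -3.46 (without F3X) and 0.68 (without G56) with 1 cell left out. Except with no filter, GS medians covered only members that passed it, 12 in the main comparison. A member could pass through the group in which it was read, so these medians say nothing of the 58 as a set. The GS median of members, -1.98 in the main comparison, was -1.44 with summed reads, -0.80 with TMM, -0.95 with DESeq2, -1.72 with no filter (33 lower and 9 higher of 53, against 28.6% and 43.7% of genes), -3.11 without the highest cells, -2.25 after thinning (5 lower and 0 higher of 6, against 27% and 39.2%), -1.63 with all labelled cells and -1.64 with Y2 cells added (4 lower of 7, against 23.5%). Leaving out 1 cell moved it between -2.41 (without Y514) and -1.28 (without Y712), and the snoRNP median over the same range. The snoRNP median, -1.91 in the main comparison, was -1.18 with TMM, -1.36 with DESeq2 and -3.53 without the highest cells. The count of GS members higher was 0 without Y508 and 2 without Y701, and EMG1 was at 0.26 with TMM, 0.080 with DESeq2, and between -10.92 (without Y507) and 6.08 (without Y702) with 1 cell left out. The causes were not tested.

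Of all alternatives for group values, 191 moved by less than the spread or 1.5 times and 29 by more, and of those leaving out 1 cell, 30 and 8. Limits without the top cell and ratios of class shares by cell set were added after seeing the data. No paired analysis was possible because replicate numbers do not tie single cells across groups and no test was run. Depth limits GS: in isotonic cells of batch 2 it reached down to 14245 reads.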

Other observations

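Beside the proteins, 81 entries for small nucleolar RNAs were counted. They took a median of 0.0171% of reads on genes in AAS cells, 0.00843% in hypotonic cells and 0.0123% when isotonic (batch 1). For batch 2 the median was 0.00244% under GS and 0% in isotonic cells. The 8 entries for spacers of the ribosomal RNA transcript had 0 reads in every kept cell.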
